A study of Zea mays with 12 samples.

Results

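Oleosins and caleosins are the proteins that coat the oil bodies of seeds, and the 7 genes described here are those whose protein description in the gene table contains either word, out of 33589 genes in the table. They comprise 4 oleosin genes, 2 caleosin genes and 1 steroleosin gene, whose name contains the same word. RNA was measured in embryos of 2 maize inbred lines, line 102 (Ji853), which the study calls sensitive to low temperature, and line 55 (Zao8-3), which it calls resistant. All seeds first took up water for 6 h at 25 °C, and the embryos were collected after a further 2 h at 10 °C (LT) or at 25 °C (CT). Each of the 4 groups, LT_102, LT_55, CT_102 and CT_55, had 3 biological replicates, which gives 12 libraries. Each line stands for 1 inbred genotype only, so a difference between line 102 and line 55 is a difference between those genotypes and not between sensitive and resistant maize in general.

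An oil body is a droplet of triacylglycerol, the storage oil of the seed, inside a single layer of phospholipid. Oleosins cover that layer and anchor in the oil through a long hydrophobic hairpin, which keeps neighbouring droplets from fusing in the drying and rewetting seed. Caleosins have a similar anchor with a calcium-binding domain, and several act as peroxygenases, which oxidise fatty acids. Steroleosins carry a sterol dehydrogenase domain behind the anchor. In the maize kernel most of the oil lies in the embryo, and it is broken down after germination.

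Values are given as deposited FPKM, a measure meant to scale the fragments counted for a gene by transcript length and library depth. Between the 7 genes this scaling did not follow the listed gene spans. In LT_102 replicate 1, LOC100280594 (span 940 bases) had 206 FPKM and 687 CPM, a count relative to all counts of its library. There the gene oleosin (span 765 bases) had 615 FPKM and 443 CPM. An order or ratio between genes below is therefore that of the deposited FPKM, unless CPM is named. Total counts of the libraries lay between 44028579 and 67873652 counts, and the lowest count of any of the 7 genes in any library was 415. Genes were tested where 3 or more libraries reached 0.5 FPKM, as did 22985 genes in all and all 7 genes described here. The embryo label was checked with the 6 genes whose description matched embryo storage or maturation proteins (1 of them is a transcription factor that matched by its wording). Their summed FPKM was 10902 to 15376 in LT_102, 5635 to 6776 in LT_55, 13868 to 15962 in CT_102 and 5930 to 6634 in CT_55. The 29 zein genes, which store protein in the endosperm, summed to 3.02 to 7.36 FPKM in LT_102, 27.1 to 36.3 in LT_55, 1.51 to 2.10 in CT_102 and 25.4 to 43.3 in CT_55. The 4 other endosperm markers, matched by description, summed to 0.370 to 2.79 in LT_102 and 473 to 537 in LT_55. At 25 °C they summed to 12.02 to 23.4 in CT_102 and 453 to 529 in CT_55. Most of it in line 55 came from LOC103630223, described as granule-bound starch synthase 1b, and whether it marks endosperm was not tested. Of 2 genes described as form 1, wx1 had 0.175 to 0.815 FPKM in LT_55 and 1.98 to 3.67 in CT_55. The other, LOC111589219, had 69.5 to 111 in LT_55 and 7.96 to 53.4 in CT_55. By the call rule given below, 4 of 6 embryo markers were higher and 7 of 8 tested endosperm markers lower in line 102 at each temperature, and their part in the line differences below was not tested. In such bulk samples, fewer cells of a type and less RNA per cell cannot be told apart. Reads of both lines were mapped to the genome of a different line, B73, so a lower level and a poorer match of a line's reads to that genome cannot be told apart either.

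In deposited FPKM the oil body coat genes spanned more than 2 orders of magnitude. The oleosin ole1 was the highest of the 7 in 12 of 12 libraries and ranked 15th of all genes by mean FPKM (3810 over the 12 libraries). By FPKM the gene named oleosin came next with a mean of 699, above the steroleosin LOC100286255 (517) in 11 of 12 libraries. LOC100280594 (187), LOC100286352 (85.1) and the caleosins LOC100285543 (43.9) and LOC100282316 (15.0) followed. The overall means hide one exchange in that order, since the caleosins stood in opposite order in the 2 lines. The order below ole1 was different in CPM, which takes no account of length. In LT_102 replicate 1 the steroleosin had 826 CPM, LOC100280594 687 and oleosin 443. In LT_55 replicate 1 they had 1164, 429 and 429. Together the 7 genes held 0.499 to 0.693% of the summed FPKM of a library, and ole1 made up 67.1 to 73.7% of their sum. Their summed FPKM was 5099 ± 194 in LT_102, 5200 ± 466 in LT_55, 5895 ± 470 in CT_102 and 5234 ± 475 in CT_55 (mean ± SD, n = 3 each). As a ratio of means, LT_102 over LT_55 was 0.981, CT_102 over CT_55 was 1.13, LT_102 over CT_102 was 0.865 and LT_55 over CT_55 was 0.994.

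**Figure D1:**
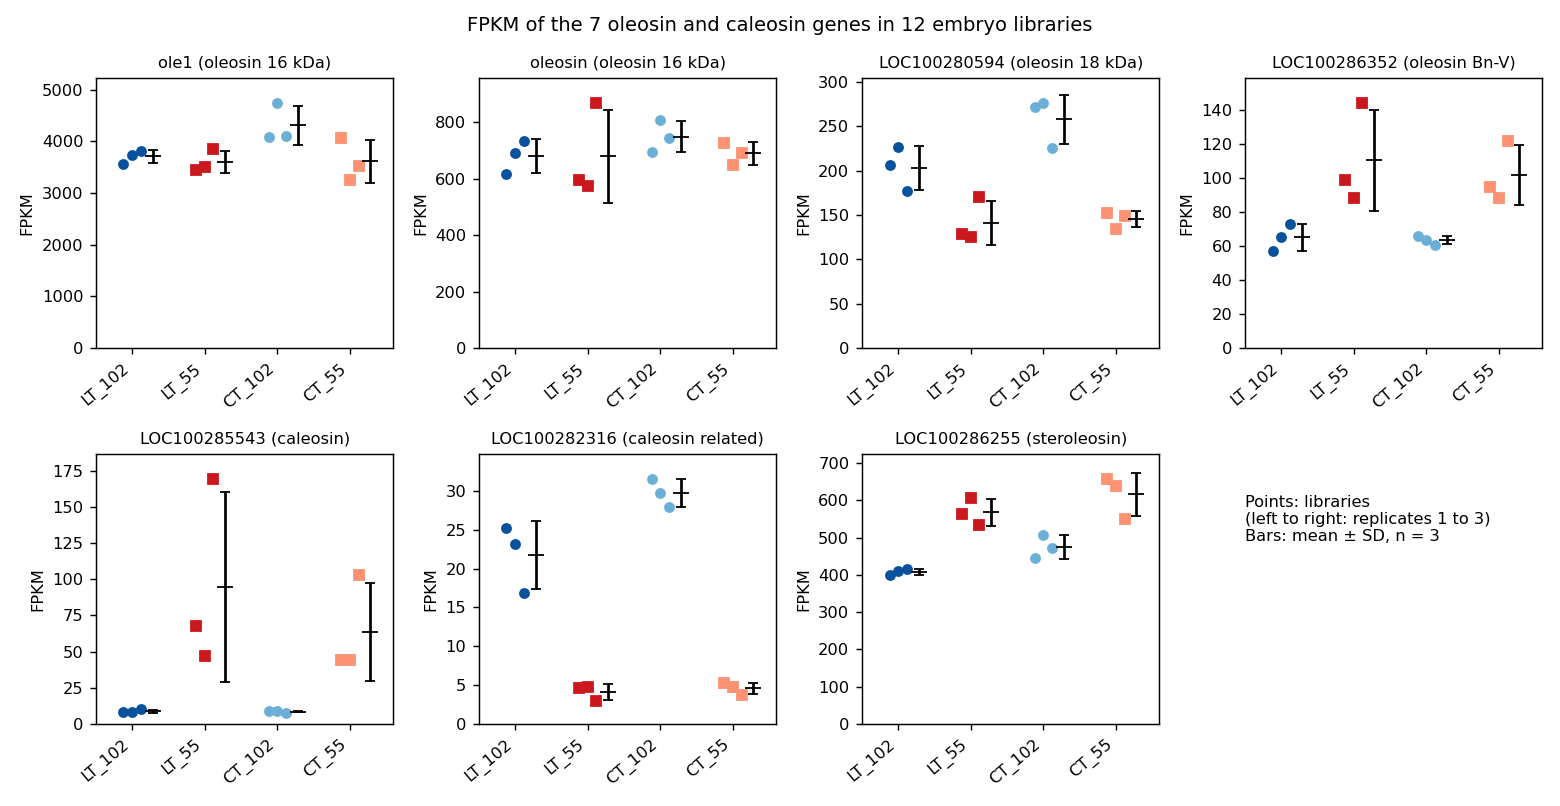
FPKM of the 7 genes in each library, one panel per gene with its own axis from 0, the groups in the order LT_102, LT_55, CT_102 and CT_55. Points are libraries and bars are the mean ± SD of 3. The caleosin LOC100285543 stays at 7.80 to 9.93 in the line 102 libraries and reaches 43.9 to 170 in line 55, while LOC100282316 shows the opposite order.

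The main question was how the lines differed at each temperature. Following the study's threshold, a line difference was called where the log2 fold change was 0.585 or more in size (a fold of 1.5) and the unadjusted p of edgeR's quasi-likelihood test was under 0.05. Adjusted p-values (Benjamini-Hochberg over the 22985 genes) are printed with each result. Between LT_102 and LT_55, 3 of the 7 genes were called, 1 higher and 2 lower in LT_102, beside 51.1% of all tested genes (25.1% higher and 26.1% lower). Between CT_102 and CT_55, 4 of the 7 were called, 2 higher and 2 lower in CT_102, beside 48.1% of all tested genes (24.3% higher and 23.8% lower). The share among the 7 genes was near that of the whole table at both temperatures. The median of the 7 log2 fold changes was −0.04 at 10 °C, beside 0.00 over all tested genes, and 0.07 at 25 °C, beside 0.01. The sections that follow take the genes by role.

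Among the oleosins, the abundant ole1 and oleosin were at like levels in both lines, LOC100280594 was higher in line 102 and LOC100286352 was lower in line 102. The gene ole1 (annotated as oleosin 16 kDa, chromosome 2, 22071718 to 22072599, plus strand) had 3569, 3743 and 3822 FPKM in LT_102, against 3453, 3509 and 3848 in LT_55. These ranges lie almost on top of each other. At 25 °C it had 4079, 4744 and 4114 FPKM in CT_102, against 4066, 3255 and 3518 in CT_55. Here the line 102 libraries were all higher, with the lowest of them barely above the highest of line 55. Between the lines its log2 fold change came to −0.0038 at 10 °C (SE 0.10, 95% interval −0.22 to 0.21, edgeR adjusted p = 0.976) and 0.21 at 25 °C (SE 0.10, interval −0.01 to 0.42, edgeR adjusted p = 0.095). Neither value passed, and both intervals lie within the fold threshold. The sign at 10 °C changed with the scaling.

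The gene named oleosin is a second one annotated as oleosin 16 kDa (chromosome 1, 688848 to 689612, plus strand). It had 615, 692 and 734 FPKM in LT_102, against 595, 573 and 868 in LT_55. It had 696, 806 and 743 FPKM in CT_102, against 728, 647 and 692 in CT_55. The groups overlapped at both temperatures, and the highest library of all was LT_55 replicate 3. The log2 fold change came to −0.04 at 10 °C (SE 0.15, 95% interval −0.37 to 0.28, edgeR adjusted p = 0.808) and 0.07 at 25 °C (SE 0.15, interval −0.25 to 0.40, edgeR adjusted p = 0.703). Relative to ole1 it stood at 0.183 ± 0.010 in LT_102, 0.187 ± 0.034 in LT_55, 0.174 ± 0.0060 in CT_102 and 0.192 ± 0.011 in CT_55 (ratio of FPKM, mean ± SD, n = 3 each). The size of this ratio depends on the lengths used in the FPKM, with 443 CPM for oleosin and 6604 for ole1 in LT_102 replicate 1. Both genes carry the same description. Their sequences were not compared here, and whether reads were shared between them was not tested.

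LOC100280594, annotated as oleosin 18 kDa (chromosome 1, 268595637 to 268596576, minus strand), was higher in line 102. It had 206, 227 and 177 FPKM in LT_102, against 128, 125 and 170 in LT_55. It had 271, 276 and 226 FPKM in CT_102, against 152, 135 and 149 in CT_55. The line 102 libraries lay above those of line 55 at both temperatures, with LT_55 replicate 3 close to the lowest LT_102 library. The log2 fold change was 0.78 at 25 °C (SE 0.13, edgeR adjusted p = 0.000281), which was called. At 10 °C it was 0.48 (SE 0.13, edgeR adjusted p = 0.0073), under the fold threshold. Without LT_55 replicate 3 the 10 °C value was 0.66 and was called. The interval of the difference between the temperatures is given with the interaction below, and it includes 0.

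LOC100286352, annotated as oleosin Bn-V after the rapeseed protein family (chromosome 8, 74317616 to 74318519, minus strand), went the other way. It had 57.2, 65.1 and 73.1 FPKM in LT_102, against 98.8, 88.4 and 144 in LT_55. It had 65.8, 63.4 and 60.8 FPKM in CT_102, against 94.7, 88.4 and 122 in CT_55. Every line 102 library lay below every line 55 library at the same temperature, and replicate 3 was the highest of line 55 at both. Its log2 fold change came to −0.81 at 10 °C (SE 0.18, edgeR adjusted p = 0.00158) and −0.73 at 25 °C (SE 0.18, edgeR adjusted p = 0.00332), and both were called. Both calls rest on replicate 3 of line 55, since the value was −0.54 without LT_55 replicate 3 and −0.58 without CT_55 replicate 3, in each case just under the fold threshold. The FPKM of LOC100280594 was above that of LOC100286352 in 12 of 12 libraries, by 3.17 ± 0.650 times in LT_102, 1.30 ± 0.117 in LT_55, 4.06 ± 0.326 in CT_102 and 1.45 ± 0.202 in CT_55. The size of these ratios depends on the lengths used in the FPKM, with 687 and 99.4 CPM in LT_102 replicate 1.

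The caleosins gave the largest line differences of the 7 genes, in opposite directions. LOC100285543, annotated as caleosin and assigned the term response to cold in the gene table, covers 28260 bases on chromosome 1 (28052283 to 28080542, plus strand, 2 transcripts). It had 8.15, 7.84 and 9.93 FPKM in LT_102, against 67.7, 46.9 and 170 in LT_55. It had 9.01, 8.60 and 7.80 FPKM in CT_102, against 44.5, 43.9 and 103 in CT_55. Line 102 was low and even in all 6 libraries, while line 55 was higher in all 6 and uneven, with replicate 3 far above replicates 1 and 2 at both temperatures. The log2 fold change was −3.51 at 10 °C (SE 0.46, edgeR adjusted p = 3.07e-05), 11.4-fold lower in LT_102, with a 95% interval of −4.51 to −2.50. At 25 °C it was −2.96 (SE 0.45, edgeR adjusted p = 0.000113), 7.78-fold lower in CT_102, with an interval of −3.94 to −1.98. Without replicate 3 of line 55 at both temperatures, an alternative chosen after the values were seen, the values were −2.75 and −2.43 and both calls stayed.

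LOC100282316, annotated as caleosin related protein (chromosome 5, 210785378 to 210787357, plus strand), was higher in line 102. It had 25.3, 23.2 and 16.9 FPKM in LT_102, against 4.60, 4.75 and 2.89 in LT_55. It had 31.6, 29.7 and 27.9 FPKM in CT_102, against 5.24, 4.72 and 3.74 in CT_55. The groups were far apart, and replicate 3 of line 55, the highest for LOC100285543, was the lowest for this gene at both temperatures. The log2 fold change was 2.37 at 10 °C (SE 0.20, edgeR adjusted p = 5.83e-07), 5.18-fold higher in LT_102. At 25 °C it was 2.65 (SE 0.20, edgeR adjusted p = 2.58e-07), 6.29-fold higher in CT_102. An exact two-sided permutation test on the FPKM of 3 against 3 libraries gave p = 0.1 for both caleosins at both temperatures, the smallest value it can give.

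The ratio of LOC100282316 to LOC100285543 sums up the exchange. It was 3.10, 2.96 and 1.70 in LT_102, against 0.068, 0.101 and 0.017 in LT_55. At 25 °C it was 3.51, 3.46 and 3.58 in CT_102, against 0.118, 0.108 and 0.036 in CT_55. LOC100282316 was therefore the higher caleosin in 6 of 6 libraries of line 102 and LOC100285543 the higher one in 6 of 6 libraries of line 55. The summed FPKM of both genes was 30.4 ± 3.35 in LT_102, 98.8 ± 64.7 in LT_55, 38.2 ± 2.45 in CT_102 and 68.3 ± 33.1 in CT_55.

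**Figure D2:**
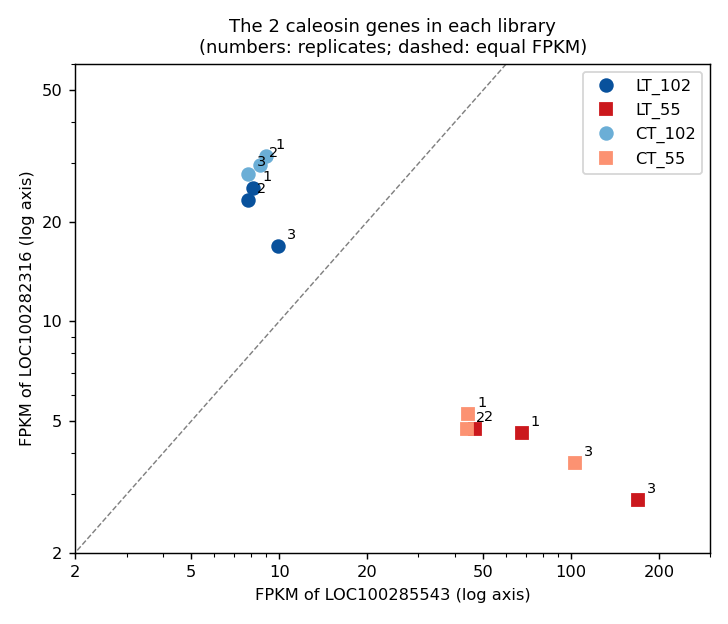
FPKM of the caleosin LOC100282316 against that of LOC100285543 on log axes, one point per library with its replicate number, and a dashed line of equal FPKM. The 6 line 102 libraries lie above the line, at ratios of 1.70 to 3.58, and the 6 line 55 libraries below it, at 0.017 to 0.118, with both replicates 3 farthest to the right.

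The steroleosin LOC100286255 (chromosome 2, 70460694 to 70462291, minus strand) is the only one of its kind among the 7 genes. It had 399, 410 and 415 FPKM in LT_102, against 562, 606 and 535 in LT_55. It had 444, 508 and 472 FPKM in CT_102, against 659, 640 and 551 in CT_55. All line 102 libraries lay below all line 55 libraries at the same temperature. Its log2 fold change came to −0.52 at 10 °C (SE 0.09, edgeR adjusted p = 0.000265) and −0.43 at 25 °C (SE 0.09, edgeR adjusted p = 0.00128), with intervals of −0.72 to −0.33 and −0.62 to −0.23. Both are under the fold threshold, so the gene was not called although its adjusted p was small. Its locus shares 40 bases with LOC100274087 on the opposite strand, which had 154 to 432 counts in a library, against 38947 to 78736 for the steroleosin. Set against ole1 in deposited FPKM, it stood at 0.110 ± 0.0017 in LT_102, 0.158 ± 0.017 in LT_55, 0.110 ± 0.0040 in CT_102 and 0.172 ± 0.022 in CT_55.

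By the FPKM of single libraries, 5 of the 7 genes did not overlap between LT_102 and LT_55, 2 higher and 3 lower in line 102, beside 69% of all tested genes (36.5% higher and 32.5% lower). Between CT_102 and CT_55, 6 of the 7 did not overlap, 3 in each direction, beside 66.6% of all tested genes (35.8% higher and 30.8% lower).

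**Figure D3:**
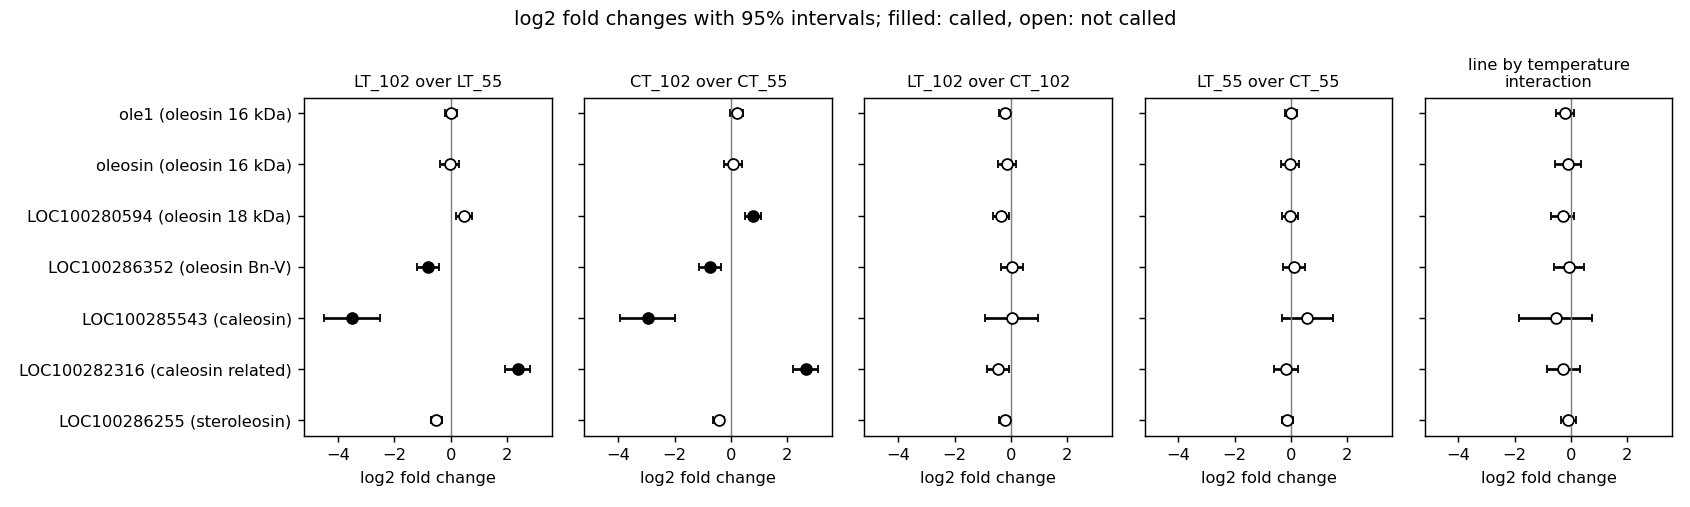
log2 fold changes of the 7 genes (rows) in the 5 comparisons (panels), with 95% intervals from the edgeR fit. Filled points were called and open points were not. Filled points appear only between the lines, from −3.51 to 2.37 at 10 °C and from −2.96 to 2.65 at 25 °C.

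The next question was what 2 h at 10 °C did to these genes in each line. For these comparisons and for the interaction a gene was called at an edgeR adjusted p under 0.05. In line 102, 0 of the 7 genes were called with edgeR and 0 with DESeq2, beside 0.679% of all tested genes with edgeR. The log2 fold change of LT_102 over CT_102 was below 0 in 5 of the 7, with a median of −0.22, beside 0.01 over all tested genes. At an unadjusted p under 0.05 there were 4 of the 7, beside 13% of all tested genes, and all 4 were below 0.

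These 4 were the caleosin LOC100282316 at −0.46 (SE 0.19, edgeR adjusted p = 0.317), the oleosin LOC100280594 at −0.35 (SE 0.13, edgeR adjusted p = 0.282), and the steroleosin and ole1, both at −0.22. For the steroleosin the SE was 0.09, with an edgeR adjusted p = 0.308. For ole1 the SE was 0.10, with an edgeR adjusted p = 0.375. In FPKM, LOC100282316, the steroleosin and ole1 had all 3 LT_102 libraries below all 3 CT_102 libraries, 3 of the 7 genes, beside 11.2% of all tested genes. LOC100280594 came close to that, with 227 in its highest LT_102 library and 226 in its lowest CT_102 library. LOC100282316 had the lowest ratio of means of the 4, at 21.8 ± 4.37 FPKM in LT_102 and 29.8 ± 1.84 in CT_102, a ratio of 0.732. None of these 4 values survives adjustment over all genes. The other genes were at −0.14 for oleosin (interval −0.47 to 0.18), 0.04 for LOC100286352 (interval −0.35 to 0.42) and 0.03 for the caleosin LOC100285543 (interval −0.91 to 0.96).

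In line 55, 0 of the 7 genes were called between LT_55 and CT_55 with edgeR and 0 with DESeq2, beside 0.0522% of all tested genes with edgeR. At an unadjusted p under 0.05 there were also 0 of the 7, beside 4.43% of all tested genes. The FPKM of LT_55 and CT_55 overlapped in all 7 genes, beside 7.23% of all tested genes that did not overlap. The intervals were narrow for ole1, at −0.01 (interval −0.23 to 0.21), and for the steroleosin, at −0.13 (interval −0.32 to 0.07). They were wide for the caleosin LOC100285543, the gene annotated with response to cold, at 0.57 (SE 0.42, interval −0.33 to 1.48, edgeR adjusted p = 1). Its LT_55 mean was 94.8 ± 65.7 FPKM and its CT_55 mean 63.7 ± 33.8. Leaving out LT_55 replicate 3 alone turned the value to −0.18, the 1 change of sign in 25 alternatives. Alternatives other than leaving out a single library, that without both replicates 3 of line 55 among them, gave 0.35 to 0.59. The interval spans 0.794 to 2.80 times the CT_55 level and so includes both directions.

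The line by temperature interaction is the log2 fold change of LT over CT in line 102 minus that in line 55. It was below 0 in 7 of the 7 genes, though oleosin and LOC100286352 turned above 0 without both replicates 3 of line 55. The median was −0.21, beside 0.00 over all tested genes. With edgeR 0 of the 7 were called and with DESeq2 0, beside 0.00435% of all tested genes, and 0 of the 7 had an unadjusted p under 0.05, beside 6.33% of all tested genes. The largest in size was that of LOC100285543, at −0.55 (SE 0.60, interval −1.85 to 0.75). It turned to 0.20 without LT_55 replicate 3 alone. Alternatives other than leaving out a single library, that without both replicates 3 among them, kept it at −0.58 to −0.32. The smallest adjusted p was that of LOC100280594, with a value of −0.30 (SE 0.19, interval −0.71 to 0.11, edgeR adjusted p = 0.851). No difference between the lines in their response to 10 °C was therefore detected for any of these genes.

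The 12 libraries were then used to find the genes whose pattern was most like that of the most abundant gene and of LOC100285543. For LOC100285543 the highest Pearson correlation of log2 CPM (a count relative to all counts of its library) was 0.999, with LOC100283945, annotated as the enzyme that makes CDP-choline, the precursor of the membrane lipid phosphatidylcholine. LOC100283945 (chromosome 1, 108193729 to 108197614) had 21.8, 21.6 and 23.7 FPKM in LT_102, against 86.4, 69.3 and 159 in LT_55. It had 21.5, 20.5 and 21.1 FPKM in CT_102, against 67.2, 64.5 and 117 in CT_55. It thus shares with the caleosin the low and even level in line 102 and the high replicate 3 in line 55. The next were the uncharacterized LOC100383087 (0.996) and LOC100281562, annotated as ubiquitin-protein ligase (0.995).

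These correlations are descriptions over 12 libraries that fall into 2 lines, so any gene with a clean line difference scores high. The measure was therefore repeated on each library's deviation from its group mean. There the highest were cgs1 (0.995), annotated as cystathionine gamma-synthase 1, an enzyme of methionine synthesis, LOC100283945 again (0.993) and LOC100283320 (0.993), annotated as S-adenosylmethionine decarboxylase, an enzyme of polyamine synthesis. LOC100285543 was 2.96 times as high in LT_55 replicate 3 as in the mean of replicates 1 and 2, and 2.33 times as high in CT_55 replicate 3. The same ratio was 2.06 in LT_55 and 1.71 in CT_55 for cgs1, 2.04 and 1.78 for LOC100283945, and 2.36 and 2.04 for LOC100283320. Among the 7 genes the deviations of LOC100285543 went most closely with those of the oleosin LOC100286352 (0.952) and opposite to those of the caleosin LOC100282316 (−0.836). Replicate 3 of line 55 carries most of these deviations. What sets those 2 libraries apart was not tested.

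For ole1 the highest correlations over the 12 libraries were lower. They were 0.895 with TIDP2671, an uncharacterized gene, 0.889 with LOC100502473, annotated as GDT1-like protein 3, and 0.877 with LOC103653189, annotated as an inositol polyphosphate 5-phosphatase. In the deviations from the group means they were 0.927 with LOC100192719, annotated as small nuclear ribonucleoprotein F, 0.920 with the uncharacterized LOC100193665 and 0.917 with LOC109945614, annotated as a chromatin assembly factor subunit. LOC100193665 had an FPKM of at most 0.898 in any library. None of the genes named for ole1 came near the 0.999 seen for the caleosin LOC100285543.

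Genes of the same pathway were taken from lists matched by description. Over all tested genes, the shares called higher and lower in line 102 were 25.1% and 26.1% at 10 °C, with 24.3% and 23.8% at 25 °C, and each list is read beside these. Of 9 genes for other oil body proteins, 8 were tested, and at both temperatures 5 were lower in line 102 and 0 higher. The median of their log2 fold changes was −0.96 at 10 °C, and at 25 °C it was −0.97, beside 0.00 and 0.01 over all tested genes. LOC103646566, an 11-beta-hydroxysteroid dehydrogenase and so of the enzyme family that steroleosins belong to, had 206, 213 and 220 FPKM in LT_102, against 850, 850 and 1021 in LT_55 (log2 fold change −2.14, SE 0.09, edgeR adjusted p = 3.65e-09). LOC100279063, of the same family, had 30.7, 33.9 and 36.1 FPKM in LT_102, against 88.2, 83.1 and 109 in LT_55 (log2 fold change −1.53, SE 0.14, edgeR adjusted p = 1.13e-06). The third dehydrogenase tested, LOC103648012, was at −0.99 (edgeR adjusted p = 0.105) and was not called. The others called lower at 10 °C were the oil body-associated proteins LOC100286341 (−1.25) and OBAP2A (−0.71) and the seipin LOC100277586 (−0.94), from a family that shapes the sites where oil droplets form.

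Of 22 genes for triacylglycerol synthesis 14 were tested, and 1 was higher and 5 lower in line 102 at 10 °C, with 0 higher and 5 lower at 25 °C. LOC100285585, an acyltransferase, had 4.52, 4.69 and 4.30 FPKM in LT_102, against 2.49, 3.74 and 2.05 in LT_55. LOC100281851, a glycerol-3-phosphate acyltransferase whose GO term is cutin synthesis, had 0, 0.270 and 0.245 FPKM in LT_102, against 2.02, 2.39 and 1.32 in LT_55. LOC103629043, which the table describes both as a sucrose-phosphatase and as a diacylglycerol O-acyltransferase, had 0 FPKM in all 3 LT_102 libraries and 21.1, 22.6 and 18.7 in LT_55. With mixed descriptions and 0 counts in LT_102, no fold is given for it.

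Of 29 genes for lipases and oil body removal 21 were tested, and 6 were higher and 3 lower in line 102 at 10 °C, with 8 higher and 2 lower at 25 °C. At 10 °C the share called higher was near that of all tested genes. LOC100279295, described as homolog C of the ATPase CDC48, a family with a member that pulls oleosins off oil bodies in Arabidopsis, had 3.50, 3.22 and 3.10 FPKM in LT_102, against 0.476, 0.706 and 0.298 in LT_55 (log2 fold change 2.68, SE 0.25, edgeR adjusted p = 1.72e-06). LOC103645784, from the UBX-domain family of CDC48 adaptors, had 47.4, 47.5 and 47.4 FPKM in LT_102, against 21.0, 24.7 and 14.7 in LT_55 (log2 fold change 1.19, SE 0.16, edgeR adjusted p = 2.95e-05). Of the lipases, LOC100216883, a monoglyceride lipase, had 1.22, 0.998 and 0.885 FPKM in LT_102, against 11.3, 13.2 and 8.76 in LT_55 (log2 fold change −3.46, SE 0.20, edgeR adjusted p = 2.53e-08). LOC100281723, described as a triacylglycerol lipase like protein and also given a galactolipase GO term, had 4.36, 4.94 and 4.42 FPKM in LT_102, against 12.5, 11.9 and 6.98 in LT_55 (log2 fold change −1.23, SE 0.23, edgeR adjusted p = 0.000568). Lipases of this list lay on both sides, and the next 2 were chosen after their values were seen. LOC103653206, described as triacylglycerol lipase 2, was called higher in line 102 at 25 °C (log2 fold change 0.84, SE 0.17, edgeR adjusted p = 0.00112). LOC103636624, described as triacylglycerol lipase SDP1, had 231 ± 35.5 FPKM in LT_102, against 162 ± 35.2 in LT_55. Its log2 fold change was 0.46 at 10 °C (SE 0.18, edgeR adjusted p = 0.0356) and 0.54 at 25 °C (SE 0.18, edgeR adjusted p = 0.0186). Both are under the fold threshold.

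Of 16 genes matched by description to regulators of seed maturation 13 were tested, and 0 were higher and 2 lower in line 102 at 10 °C, with 1 higher and 2 lower at 25 °C. LOC100281565 (described as LEC14B), fus6 (described as fusca-like protein) and LOC103632288 and LOC103636240 (described as SUPPRESSOR OF ABI3-5) matched by their wording. Whether the genes of this list are such regulators was not tested. The gene vp1, described as regulatory protein viviparous-1, had 276 ± 21.8 FPKM in LT_102 and 236 ± 28.2 in LT_55. Its log2 fold change was 0.18 at 10 °C (SE 0.11) and 0.0028 at 25 °C (SE 0.11), called at neither. LOC100284582, similar to ABI5, a transcription factor of abscisic acid signalling, had 4.23, 4.07 and 5.38 FPKM in LT_102, against 9.86, 9.97 and 13.6 in LT_55. LOC100279474, described as an ABI3-interacting protein, had 70.2, 67.3 and 72.3 FPKM in LT_102, against 123, 126 and 110 in LT_55. LOC100502540, described as ABI5 itself, lay the other way. It was at 0.40 at 10 °C (SE 0.15, edgeR adjusted p = 0.0347, not called). At 25 °C it was at 1.23 (SE 0.15, edgeR adjusted p = 1.85e-05) and called higher in line 102. LOC100285539, with the same description as LOC100279474, was at −0.11 at 10 °C and −0.28 at 25 °C, called at neither. In all 4 lists 0 tested genes passed with edgeR between LT and CT in either line, and 0 in the interaction. At an unadjusted p under 0.05, LT_102 over CT_102 had 0 of 8 other oil body proteins, 2 of 14 synthesis genes, 5 of 21 lipase and removal genes and 4 of 13 regulators, beside 13% of all tested genes.

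**Figure D4:**
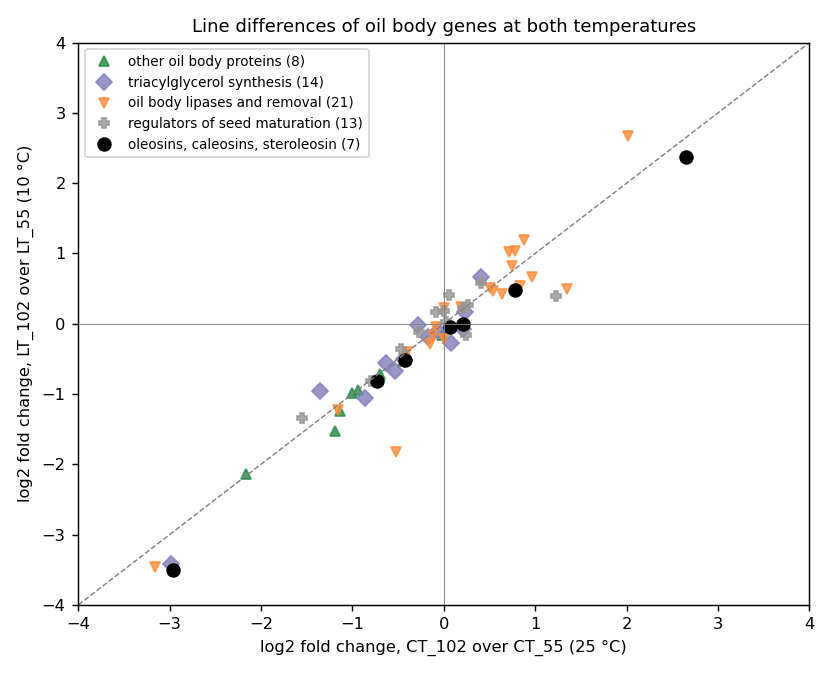
log2 fold change between the lines at 10 °C (LT_102 over LT_55) against that at 25 °C (CT_102 over CT_55), for the 7 oil body coat genes (black circles) and the tested genes of the 4 lists, with a dashed line of equality. Each gene is a point, the comparisons at the 2 temperatures share no library, and LOC103629043 lies outside the axes. The caleosins lie near opposite ends of the plotted range, at −3.51 and 2.37 at 10 °C, each with genes of the lists close by or beyond, and the other oil body proteins lie below 0.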

How the data were processed

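Poly(A) RNA of 12 embryo libraries (4 groups of 3 biological replicates) was sequenced, and groups were taken from the sample labels. The authors deposited one table of read counts per gene, and the submitters' processing notes name HISAT, StringTie, edgeR and the build B73 RefGen_v4, without their roles. FPKM values that the authors derived from the counts stand in the same deposited table. For each of the 7 genes, the count divided by FPKM and library total varied by at most 0.145% (CV) over the libraries. This shows a constant factor per gene, and between the genes the factor did not follow their listed spans. Of the 66 pairs of libraries 0 were identical.

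Counts were tested with edgeR 4.0.16 (quasi-likelihood, TMM, R 4.3.3) in one fit of the 4 groups without a block, on the 22985 genes that reached 0.5 FPKM in 3 or more libraries, and p-values were adjusted over these genes. The procedure was tested on simulated data. The standard error is the log2 fold change over the square root of F. FPKM values were set between groups by exact permutation tests. Alternatives were DESeq2 1.42.0, limma 3.58.1 on log2(FPKM + 0.1) and log2(FPKM + 1), other scalings, filters and thresholds, a replicate block, counts divided by 4, and leaving out each library. Plots used matplotlib 3.10.9.

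The 7 genes and all lists were chosen with earlier results of these data known. The text names the 7 genes, up to 2 genes of each list and direction with the largest log2 fold change at 10 °C among those called without overlap at a mean FPKM of at least 1, and 3 genes per correlation measure. Any other named gene was picked with its values in view. RefSeq's Zm-B73-REFERENCE-NAM-5.0 gene list served for synonyms and, through genes named alike, for the chromosome number of each sequence. Start and end positions are those of the deposited table. Sequences were not used here.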

Additional observations from a re-analysis of the deposited data

How the results depend on the processing

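Counts of called genes and summed values kept the reported result in 129 of 130 alternatives. A count was taken as kept within 1.5 times of the reported one, or at 0 where that was 0. The ratio of summed CPM was taken as kept within the replicate spread of the ratio of summed FPKM. Reported counts between the temperatures and in the interaction were 0 and have no direction. Alternatives that left out a library of neither group compared are included. The exception was a log2 fold threshold of 1, which only 2 of the 7 genes, the caleosins, passed at 25 °C. Of 882 alternative values of single genes 831 kept their side of the threshold and their direction, 7 lost a call, 2 gained one and 42 changed sign. Of the changes of sign, 0 concerned a called value, and the largest reported value among them was 0.57.

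At 10 °C between the lines, ole1 turned to 0.00044 with median ratio size factors and with DESeq2, 0.041 with library totals, 0.013 with the FPKM filter at 1, 0.044 with limma at either pseudocount, and 0.073 without both replicates 3 of line 55. There the gene oleosin turned to 0.0021 with library totals, 0.026 with limma at either pseudocount, and 0.20 without both replicates 3. For LT_55 over CT_55, ole1 turned to 0.0019 without a filter and to 0.000603 and 0.000602 with limma at a pseudocount of 0.1 and 1. In the interaction, leaving out both replicates 3 gave 0.036 for LOC100286352 and 0.12 for oleosin.

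Leaving out one library at a time, the changes of sign fell within these ranges. Between LT_102 and LT_55 the range was −0.031 to 0.073 for ole1 and −0.14 to 0.20 for oleosin. For LT_102 over CT_102 it was −0.093 to 0.087 for LOC100285543 and −0.060 to 0.13 for LOC100286352. For LT_55 over CT_55 it was −0.086 to 0.084 for ole1, −0.26 to 0.081 for oleosin, −0.22 to 0.034 for LOC100280594, −0.31 to 0.010 for LOC100282316, −0.18 to 1.09 for LOC100285543 and −0.14 to 0.26 for LOC100286352. For the interaction it was −1.07 to 0.20 for LOC100285543, −0.22 to 0.18 for LOC100286352 and −0.22 to 0.12 for oleosin.

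With the replicate number as a block, the lines differed in 3 called genes at 10 °C and 4 at 25 °C, with 0 in each other comparison, and LOC100285543 turned to −0.025 for LT_102 over CT_102. The deviations of same-numbered libraries from the group means had a correlation of 0.069 on average (−0.064 to 0.485), against −0.033 for different numbers, and 6 of 12 correlated best with their own number, so the numbers were not taken as pairs. The highest correlation was that of LT_55 replicate 3 and CT_55 replicate 3.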

Other observations

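Some genes outside the description rule carry annotations of the same family, and they were chosen after their values were seen. By the KEGG entry for peroxygenase that both caleosins carry, or by a GO term for oil bodies or lipid storage, 18 further genes were found, of which 16 were tested. Between the lines 5 were called higher and 4 lower in LT_102 than in LT_55, and 6 higher and 3 lower in CT_102 than in CT_55, beside 51.1% and 48.1% of all tested genes called in either direction. The gene oleosin3 has the description "unknown" and the GO term seed oilbody biogenesis. It had 1359, 1432 and 1104 FPKM in LT_102, against 872, 950 and 852 in LT_55, and 1621, 1608 and 1583 in CT_102, against 925, 940 and 923 in CT_55. Its deposited FPKM lies between those of ole1 and oleosin. Line 102 was higher in every library at both temperatures. The log2 fold change was 0.50 at 10 °C (SE 0.09, edgeR adjusted p = 0.000389), under the fold threshold. At 25 °C it was 0.74 (SE 0.09, edgeR adjusted p = 1.71e-05), which was called. The uncharacterized pco070107, with the same GO term, was the reverse, at 308, 341 and 319 FPKM in LT_102, against 727, 681 and 956 in LT_55 (log2 fold change −1.34, SE 0.14, edgeR adjusted p = 4.54e-06).

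The table holds 8 genes with the peroxygenase entry, the 2 caleosins included. The uncharacterized IDP1639 had 9.60, 10.0 and 9.06 FPKM in LT_102, against 172, 158 and 248 in LT_55, and 11.7, 11.5 and 9.90 in CT_102, against 144, 147 and 206 in CT_55 (log2 fold change −4.38 at 10 °C, SE 0.20, edgeR adjusted p = 4.22e-09). This line difference is in the direction of LOC100285543, with a higher level in line 55. LOC100217206 was lower in line 102 as well, at 17.2, 18.5 and 17.8 FPKM in LT_102, against 42.3, 33.4 and 62.0 in LT_55 (log2 fold change −1.41, SE 0.26, edgeR adjusted p = 0.000426). In both genes replicate 3 of line 55 was again the highest. The gene pco064372, with 11.9 to 17.9 FPKM in the 10 °C libraries, was not called between the lines. Other genes with the entry lay the other way at low levels. LOC100283710 had 1.52, 0.731 and 0.911 FPKM in LT_102 and 0.858, 0.911 and 1.19 in CT_102, with 0 in all 6 libraries of line 55, and was called higher in line 102 at both temperatures. LOC100275194 carries the entry but is described as a putative transposase. It had 1.59, 1.28 and 0.660 FPKM in CT_102, against 0.137, 0.168 and 0.107 in CT_55 (log2 fold change 2.96, SE 0.93, edgeR adjusted p = 0.0152). At 10 °C it was not called. LOC100281938, at most 0.402 FPKM in any library, was not tested.

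Of the 16 tested genes, pco152469 and umc1671 were called between LT_102 and CT_102, beside 0.679% of all tested genes. Both carry the GO terms lipid droplet and lipid storage beside translation elongation. The uncharacterized pco152469 had 88.2, 81.1 and 79.8 FPKM in LT_102, against 256, 223 and 148 in CT_102 (log2 fold change −1.33, SE 0.20, edgeR adjusted p = 0.0173). For umc1671, described as a putative histone-arginine methyltransferase, the values were 191, 191 and 175 FPKM in LT_102, against 281, 283 and 235 in CT_102 (log2 fold change −0.53, SE 0.10, edgeR adjusted p = 0.0359). In line 55 neither was called. The interaction was not called for either gene, at −1.17 for pco152469 (SE 0.27, edgeR adjusted p = 0.357) and −0.44 for umc1671 (SE 0.14, edgeR adjusted p = 0.584). A difference between the lines in this response was therefore not detected.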
